A study of Mus musculus with 15 samples.

Results

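The genes described here are 35 transcripts listed for the tissue beneath the gut epithelium: smooth muscle contractile proteins, fibroblast receptors and filaments, collagens and other matrix proteins, and pericyte and endothelial markers. They were taken by gene symbol from a list of 35. All 35 were among the 19938 symbols on the array, each with a single transcript cluster, the array's unit for 1 gene. They were compared across 15 Affymetrix Mouse Gene 1.0 arrays of RNA from epithelial cells isolated from the small intestine of adult mice, 3 arrays in each of 5 groups.

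The groups were cKI ileum (Gata4 conditional knockin), control ileum (labelled adult control), cKO jejunum (Gata4 conditional knockout), and jejunum and ileum of wild-type CD1 mice. Gata4 is a transcription factor gene active in the upper small bowel. The labels name neither the driver of recombination nor the exact age, give the controls no genotype, and name no jejunal control besides the wild type. Whether the 3 arrays of a group are 3 animals is not stated, and the p-values then cover only the spread among these samples, which may be technical.

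The intestinal epithelium sits on a basement membrane of type IV collagen, laminin and nidogen. Beneath it lies the lamina propria, where fibroblasts make fibrillar collagens and small proteoglycans, strands of smooth muscle run up the villus core, and pericytes wrap the capillaries. Enterocytes themselves make little of most of these products, so their transcripts are widely used to gauge how cleanly an epithelial sheet was lifted from the wall. A few of the genes, Mylk among them, are also used by epithelial cells.

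Values are the authors' log2 expression values, with array medians from 4.82 to 5.0. Genes whose highest group mean was above 4.91, the median of all values, were tested, 11784 in all; with 3 arrays a group, precision is limited by their number. Gata4 itself was at 8.02, 8.43 and 8.17 in the cKI ileum, against 6.71, 7.22 and 6.53 in the control ileum. In the wild-type ileum it was at 5.99, 5.43 and 5.39, below every control ileum array. It was at 9.72, 9.88 and 9.93 in the arrays labelled cKO jejunum, against 9.68, 9.45 and 9.47 in the wild-type jejunum, so its level did not separate the knockout from its comparator in the direction of the label. Whether the probes of its cluster lie in the deleted part is not given in the sources used here. Epithelial markers were high everywhere: Epcam, the epithelial adhesion molecule, lay between 10.38 and 10.79 in the 15 arrays, and the mean of 15 epithelial markers lay between 10.48 and 10.94.

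A pair of promoter windows from RefSeq (GRCm38.p6, 250 bases before to 50 after the start) is shown, because Acta2 had the widest range of the 35 genes and Fbln1 the largest difference of the 23 tested in any comparison. Acta2, at chr19:34255324-34255623 on the minus strand, is shown with its CArG-like boxes in capitals. These are CCNNNNNNGG with at most 1 G or C among the middle bases, a relaxed form of the element bound by serum response factor in smooth muscle genes. Fbln1, at chr15:85205758-85206057 on the plus strand, is shown with GATAA, a core GATA motif, in capitals. The Acta2 window also holds GATAA on the opposite strand, left in lower case.
Acta2: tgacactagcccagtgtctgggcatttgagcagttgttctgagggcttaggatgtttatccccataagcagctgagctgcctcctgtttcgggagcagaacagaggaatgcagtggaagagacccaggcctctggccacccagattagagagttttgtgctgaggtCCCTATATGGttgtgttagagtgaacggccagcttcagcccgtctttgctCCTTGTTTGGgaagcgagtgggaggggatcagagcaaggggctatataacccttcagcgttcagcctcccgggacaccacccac
Fbln1: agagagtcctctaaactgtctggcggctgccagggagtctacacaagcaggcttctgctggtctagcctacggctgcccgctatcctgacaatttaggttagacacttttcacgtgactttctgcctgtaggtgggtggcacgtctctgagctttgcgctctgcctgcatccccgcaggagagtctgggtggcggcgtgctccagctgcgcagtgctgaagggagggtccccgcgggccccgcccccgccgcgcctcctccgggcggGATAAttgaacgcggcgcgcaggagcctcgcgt

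Of the 35 genes, 23 had a window in the table. The relaxed CArG form was searched as given, which covers both strands, and 6 of the 23 held it, against 9.98% of all 32851 windows. These were Acta2, Col6a3, Kdr, Col1a2, Fbln2 and Lama2, and Acta2 was the only contractile gene among them. GATAA was searched on both strands, overlapped no CArG match in these windows, and was found in windows of 6 of the 23, against 25.4% of all windows. The 23 genes had 26 windows, and a gene counted if any of its windows matched. These counts of genes thus stand beside shares of single windows, which favours the genes. A match is a run of letters in this window and nothing was measured at it here.

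Of the 35 genes, 23 passed the level filter and were tested. These were all 7 contractile genes, 3 of 4 mesenchymal surface and filament genes, all 3 fibrillar collagen genes, all 3 collagen VI genes, 2 of 4 basement membrane genes, 4 of 9 other matrix genes, 1 of 3 endothelial genes and neither pericyte gene. The 12 not tested, Pdgfra, Lama2, Nid1, Lum, Fn1, Fbln2, Mgp, Postn, Cspg4, Rgs5, Pecam1 and Kdr, had no group mean above 4.91. A gene that passed only through the group where it is high had to differ, so counts over the 23 support nothing by themselves, and counts over all 35 are given beside them.

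The 35 genes did not vary alike. Acta2, which encodes smooth muscle actin, ranged from 4.93 to 9.02 over the 15 arrays, and Sparc, a collagen-binding matrix protein, from 4.41 to 8.08. The range was small for type IV collagen: Col4a1 ranged from 4.98 to 5.67 and Col4a2 from 4.86 to 5.51. In all, 11 genes spanned more than 2 log2 units, and 22 more than 1. The control ileum had the highest group mean for 27 of the 35 genes and for 16 of the 23 tested. Of all genes tested 19.5% were highest there. The wild-type jejunum had the lowest group mean for 24 of 35 and for 17 of the 23 tested. Of all genes tested 25% were lowest there.

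Control ileum replicate 2 was the highest of its own group for 29 of 35 and 20 of 23 tested, against 34.8% of all genes tested. Control ileum replicate 1 was the lowest of its group for 27 of 35 and 19 of 23 tested, against 34.8% of all genes tested. In the cKI ileum replicate 2 was highest of its group for 23 of 35 and 16 of 23 tested, against 33.6% of all genes tested. In the wild-type ileum replicate 2 was lowest for 23 of 35 and 16 of 23 tested, against 38.5%. The jejunal groups had such arrays too. Replicate 3 of the wild-type jejunum was highest for 20 of 35 and 15 of 23 tested, against 23.3% of all genes tested. Replicate 3 of the cKO jejunum was lowest for 22 of 35 and 13 of 23 tested, against 21.7%. Immune cell lists were high in control ileum replicate 2 as well. T and NK cell genes, 14 in number, averaged 6.0, 6.82 and 6.54 in control ileum replicates 1 to 3, and 10 B and plasma cell genes averaged 5.19, 6.54 and 6.48. Their part in the results below was not tested. In bulk samples such as these, fewer cells of a type and less RNA per cell cannot be told apart.

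**Figure D1:**
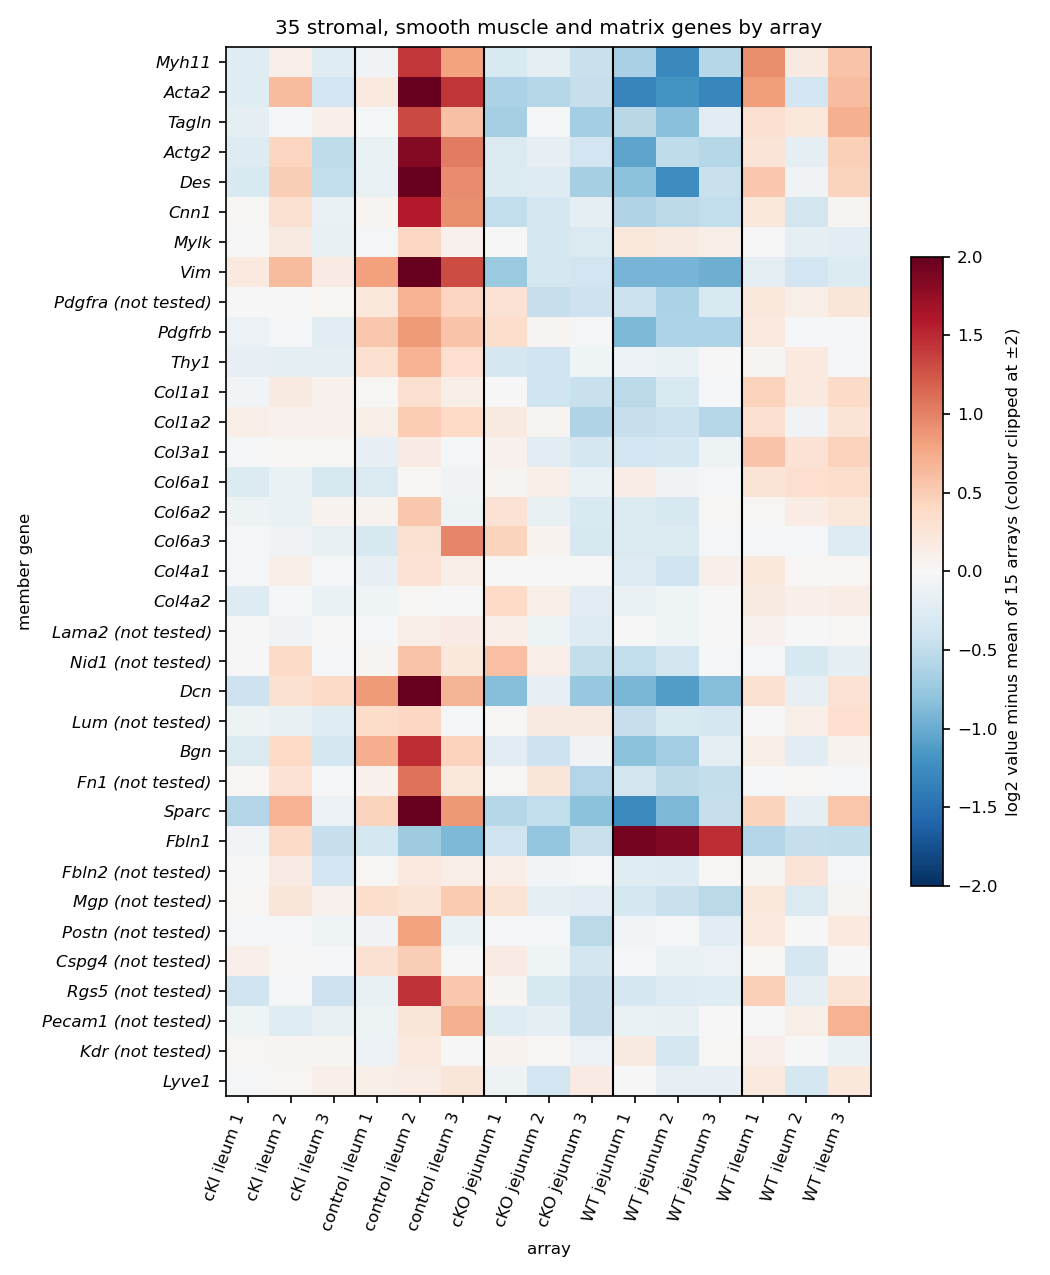
Each of the 35 genes (rows) in each of the 15 arrays (columns, grouped as cKI ileum, control ileum, cKO jejunum, wild-type jejunum and wild-type ileum), as the log2 value minus that gene's mean over the arrays, with colour clipped at 2 units either way. Control ileum replicate 2 is the reddest column, and Fbln1 is dark red in the wild-type jejunum, where most other genes are blue.

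In the fit of all 15 arrays, 3 members were called lower in the cKI ileum than in the control ileum: Pdgfrb, Vim and Thy1. None of these calls held under every alternative run, as given below. Pdgfrb, the receptor by which mesenchymal cells and pericytes answer platelet-derived growth factor, was at 5.5, 5.6 and 5.39 in the cKI ileum, against 6.16, 6.48 and 6.19 in the control ileum. The difference was -0.78 ± 0.132 (SE; 1.72-fold lower, adjusted p = 0.0158). Here and below, differences are on the log2 scale, first group minus second, ± SE, and each adjusted p comes from limma, corrected by Benjamini-Hochberg across the 11784 genes. The comparison sets ileum labelled Gata4 knockin against control ileum, where Gata4 signal was lower but above that of the wild-type ileum.

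Vim encodes vimentin, the intermediate filament of mesenchymal cells and leukocytes. It was at 6.57, 7.01 and 6.54 in the cKI ileum, against 7.19, 8.41 and 7.68 in the control ileum (-1.05 ± 0.228, adjusted p = 0.0493). Thy1, a surface protein of fibroblasts that mouse T cells also carry, was at 4.74, 4.72 and 4.72 in the cKI ileum and at 5.21, 5.6 and 5.24 in the control ileum, with a difference of -0.62 ± 0.119 (adjusted p = 0.0304). For each of these genes the groups did not overlap. The T and NK cell list averaged between 4.79 and 5.92 in cKI arrays and between 6.0 and 6.82 in control arrays. All 10 of its tested genes had differences below 0, and limma called 0, with 10 lower at an unadjusted p under 0.05. Of 8 B and plasma cell genes tested 8 were below 0 and 1 was called lower, Jchain, the joining chain of secreted immunoglobulin (-2.45 ± 0.48, adjusted p = 0.0347). Of 9 myeloid and 15 epithelial genes tested limma called 0, with 2 lower at an unadjusted p under 0.05 in each list and 1 epithelial gene higher.

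Of the 23 tested, these 3 were called lower and 0 higher by limma, while 0.424% of all genes tested were called lower and 0.339% higher. At an unadjusted p under 0.05, 12 of the 23 were lower, against 6.61% of all genes tested, and 1, Fbln1, was higher, against 8.7%. Differences were below 0 for 21 of the 23, with a median of -0.62, against 43.3% of all genes tested. They were also below 0 for 14 of the 15 epithelial genes, with a median of -0.15. Of all 35, 32 had a difference below 0, with a median of -0.36, beside 0.01 for all genes with a symbol. The groups did not overlap, with cKI lower, for 6 of the 23 tested, against 7.73% of all genes tested, and for 9 of all 35, against 7.42% of all genes with a symbol. Same-numbered arrays of cKI and control ileum, and of wild-type jejunum and ileum, were also fitted as blocks, without the cKO arrays. The labels name no such pairing. In that fit 5 members were lower, now also Bgn, the proteoglycan biglycan (-0.97, adjusted p = 0.0119), and Sparc (-1.24, adjusted p = 0.0207). The calls changed with single arrays: leaving out cKI ileum replicate 1 or 3 or control ileum replicate 2 left 0 members called, leaving out control ileum replicate 3 left 1, and leaving out control ileum replicate 1 gave 8. In a fit of the 6 arrays alone 0 were called, with adjusted p of 0.0668 for Pdgfrb, 0.117 for Thy1 and 0.218 for Vim, and Vim also missed the threshold with no level filter (0.0636) and with arrays centred on their median (0.051).

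Contractile genes were spread widely in the control ileum, and none was called. Acta2 was at 6.0, 6.88 and 5.87 in the cKI ileum, against 6.45, 9.02 and 7.68 in the control ileum, so the groups overlapped (-1.46 ± 0.472, adjusted p = 0.175). Des, which encodes the muscle filament desmin, was at 4.78, 5.58 and 4.59 in the cKI ileum, against 4.95, 7.38 and 6.03 in the control ileum (-1.14 ± 0.443, adjusted p = 0.26). Of the 7 contractile genes limma called 0, although 6 were lower at an unadjusted p under 0.05, and the median of the 7 differences was -0.84. Without control ileum replicate 1, Myh11, the smooth muscle myosin heavy chain, Acta2, Actg2, the enteric smooth muscle actin, Des and Cnn1, the actin-binding protein calponin, were called lower, with adjusted p from 0.0121 to 0.0343. Acta2 and Actg2 encode closely similar actins, so signal shared between their probes cannot be told apart here.

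Matrix genes differed among themselves. The proteoglycans and Sparc had large but uncalled differences: Dcn, which encodes decorin, a proteoglycan that binds collagen fibrils, was at 4.49, 5.2 and 5.29 in the cKI ileum and at 5.76, 7.31 and 5.58 in the control ileum (-1.22 ± 0.357, adjusted p = 0.137). Fibrillar collagens differed by little: Col1a1 by -0.08, with a 95% interval from -0.4 to 0.23, and Col3a1 by 0.02, with an interval from -0.26 to 0.3. The 3 collagen VI genes differed by between -0.4 and -0.13, and Col4a1 and Col4a2 by -0.06 and -0.13, with 0 called in either set by limma and 0 at an unadjusted p under 0.05. Lyve1, a hyaluronan receptor of lymphatic endothelium, differed by -0.13 ± 0.156 (adjusted p = 0.717).

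Fbln1, which encodes the secreted matrix protein fibulin-1, was at 7.92, 8.35 and 7.51 in the cKI ileum, against 7.62, 7.25 and 7.07 in the control ileum. Its difference of 0.61 ± 0.197 did not pass (adjusted p = 0.173), and it was past the threshold with array weights (0.74, adjusted p = 0.0174). Besides Col3a1 it was the other tested member with a value above 0.

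**Figure D2:**
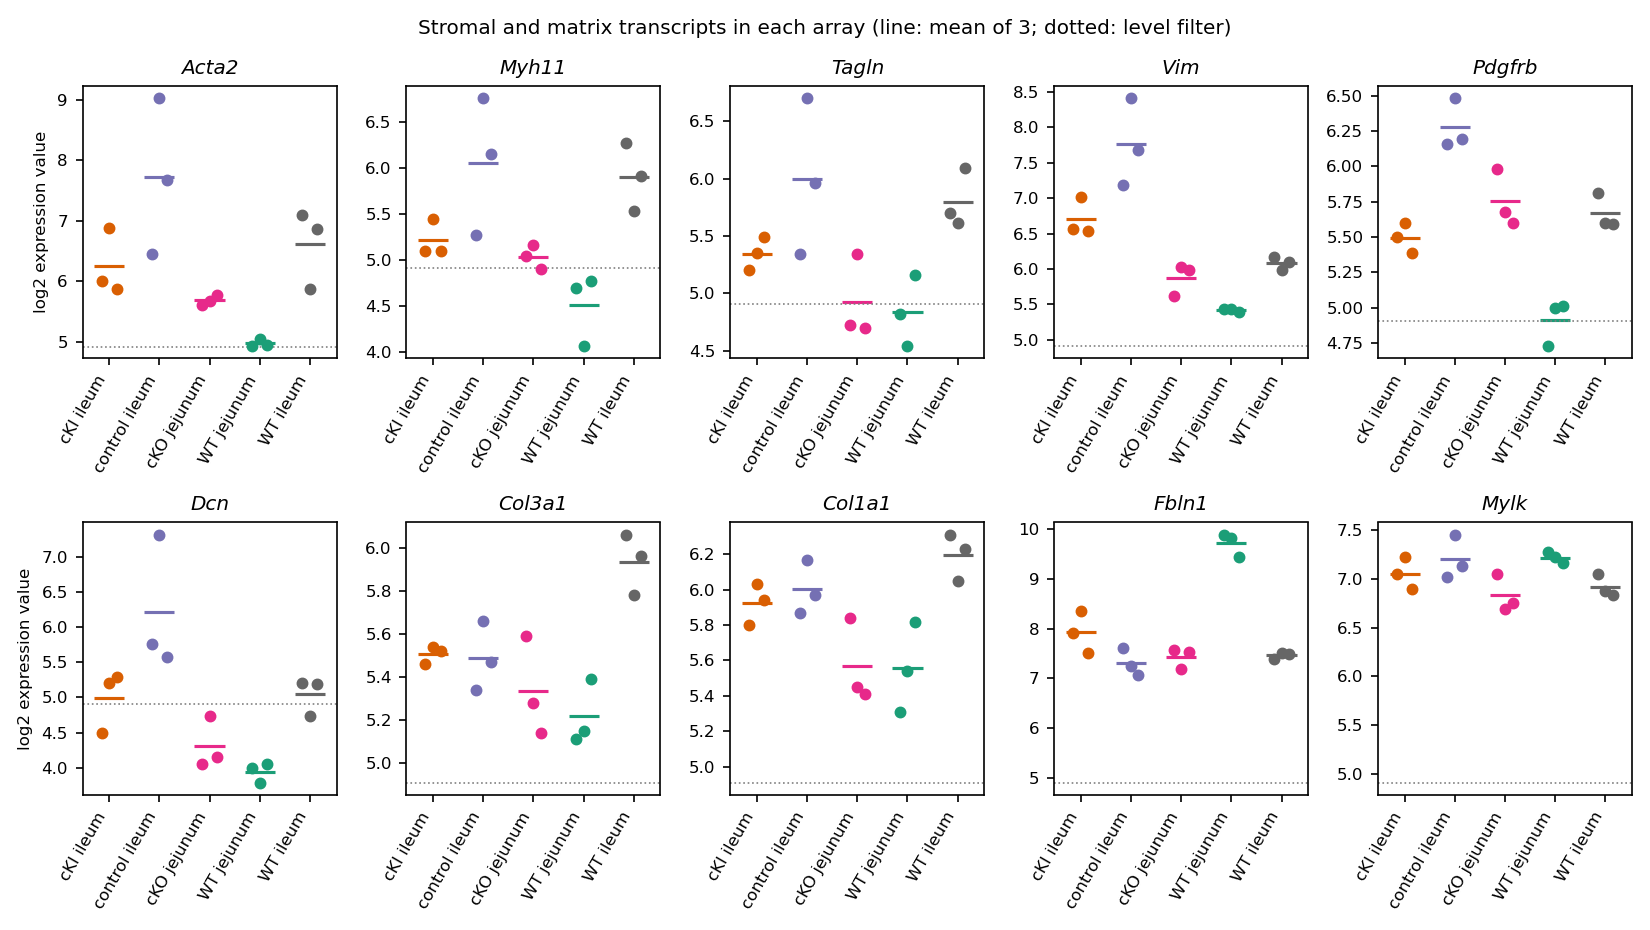
The log2 value of 10 of the genes in every array of the 5 groups, with a line at each group's mean of 3 arrays and a dotted line at the level filter of 4.91; each panel has its own vertical scale. Fbln1 is highest in the wild-type jejunum, between 9.44 and 9.88, and Acta2, Myh11 and Tagln are spread widest in the control ileum.

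In the jejunum labelled cKO, 1 member was higher than in the wild-type jejunum and 1 was lower. Fbln1 was at 7.57, 7.18 and 7.52 in the cKO jejunum, against 9.88, 9.82 and 9.44 in the wild-type jejunum. Each cKO array lay more than 1 log2 unit below each wild-type array, and the difference was -2.29 ± 0.197 (4.89-fold lower, adjusted p = 2.96e-06). Pdgfrb was at 5.98, 5.68 and 5.6 in the cKO jejunum, against 4.73, 5.0 and 5.01 in the wild-type jejunum, a difference of 0.84 ± 0.132 (adjusted p = 0.000592). The wild-type values lay near the level filter of 4.91. Background was not measured, and if these values lie near it, the size of the Pdgfrb difference may be understated. Directions in this comparison rest on the labels, since Gata4 signal was not lower in the arrays labelled cKO (0.31 ± 0.185, adjusted p = 0.322). Both calls held under every alternative run.

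The background in this comparison was 5.17% of all genes tested called higher and 7.65% called lower. Differences were below 0 for 4 of the 23 tested, with a median of 0.18, against 54.8% of all genes tested. They were below 0 for 3 of the 15 epithelial genes, with a median of 0.16. Of all 35 members 8 were below 0, with a median of 0.18, beside 0.03 for all genes with a symbol. The cKO arrays lay wholly above the wild-type arrays for 6 of the 23 tested, against 11.3% of all genes tested, and wholly below for 2, against 15.8%. Over all 35 they lay wholly above for 8 and wholly below for 3, against 10.5% of all genes with a symbol in either direction. Among the tested genes wholly above were the contractile genes Myh11, Acta2, Actg2 and Cnn1. Myh11 was at 5.04, 5.16 and 4.9 in the cKO jejunum and at 4.69, 4.06 and 4.77 in the wild-type jejunum (0.53 ± 0.297, adjusted p = 0.292). Acta2 was at 5.61, 5.68 and 5.78 in the cKO jejunum and at 4.93, 5.05 and 4.94 in the wild-type jejunum (0.72 ± 0.472, adjusted p = 0.379), and in a fit of the 6 arrays alone, where its spread is small, its adjusted p was 0.00604. Of the 7 contractile genes limma called 0, and 1, Mylk, was lower at an unadjusted p under 0.05, against 15.2% of all genes tested.

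Mylk encodes myosin light chain kinase, whose long form acts on the actomyosin belt of epithelial cells. It was at 7.05, 6.69 and 6.75 in the cKO jejunum, against 7.27, 7.22 and 7.16 in the wild-type jejunum, so the groups did not overlap (-0.39 ± 0.134, adjusted p = 0.0756). It was past the threshold without cKO jejunum replicate 1 (-0.5, adjusted p = 0.0286) and with array weights (-0.46, adjusted p = 0.0167). Collagens were close: Col1a1 differed by 0.01, with a 95% interval from -0.3 to 0.33, Col3a1 by 0.12, from -0.16 to 0.4, and Col6a1 by 0, from -0.23 to 0.24. Col1a2 differed by 0.36 ± 0.173 (adjusted p = 0.208), and by 0.6 without cKO jejunum replicate 3 (adjusted p = 0.011). Markers of other cell types beside these were Ano1 and Kit, of interstitial cells of Cajal and also of other cells, which differed by 0.79 ± 0.158 and 0.51 ± 0.139 (adjusted p = 0.00359 and 0.0235). Of 15 epithelial genes 5 were called higher, first among them by p the keratin Krt18 (0.87 ± 0.0969, adjusted p = 3.04e-05). The B and plasma cell list averaged between 4.85 and 5.05 in cKO arrays and between 4.77 and 4.91 in wild-type arrays, and 1 of its 8 tested genes was called higher, Cd74, the class II invariant chain (1.05 ± 0.242, adjusted p = 0.00934). Of 9 myeloid genes 1 was called higher, Cd14, the lipopolysaccharide co-receptor (0.99 ± 0.173, adjusted p = 0.00134), and of 10 T and NK cell genes limma called 0, with 0 at an unadjusted p under 0.05. Their part in the Pdgfrb result was not tested.

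The wild-type jejunum had less signal than the wild-type ileum of 3 of the 7 contractile genes, of all 3 fibrillar collagen genes and of Pdgfrb and Dcn, and more of Fbln1. The other 4 contractile genes did not pass. Actg2, Des and Cnn1 differed by -0.9, -1.14 and -0.51, with jejunal arrays wholly below ileal arrays, and Mylk ran the other way, by 0.3. In a fit of the 6 arrays alone Actg2, Des and Cnn1 were past the threshold (adjusted p = 0.0119, 0.00675 and 0.0412). Myh11 was at 4.69, 4.06 and 4.77 in the jejunum, against 6.27, 5.53 and 5.91 in the ileum, a difference of -1.4 ± 0.297 (adjusted p = 0.00305). Acta2 was at 4.93, 5.05 and 4.94 in the jejunum, against 7.09, 5.87 and 6.87 in the ileum (-1.63 ± 0.472, adjusted p = 0.0217). Tagln, which encodes the actin-binding protein transgelin, was at 4.82, 4.54 and 5.16 in the jejunum, against 5.7, 5.61 and 6.09 in the ileum (-0.96 ± 0.277, adjusted p = 0.021). None of these pairs of groups overlapped. Of the 9 jejunal values, 5 lay below the level filter of 4.91 and the other 4 between 4.93 and 5.16. Background was not measured, and if these values lie near it, the sizes of these differences may be understated. The comparison sets one region against the other in mice with unmodified Gata4.

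All 3 fibrillar collagen genes were lower in the jejunum, by similar amounts. Col3a1, the type III chain of soft connective tissue, was at 5.11, 5.15 and 5.39 in the jejunum, against 6.06, 5.78 and 5.96 in the ileum, a difference of -0.72 ± 0.131 (adjusted p = 0.000907). Col1a1 and Col1a2, the chains of type I collagen, differed by -0.64 ± 0.148 (adjusted p = 0.00552) and -0.66 ± 0.173 (adjusted p = 0.0123). Col1a1 was at 5.31, 5.54 and 5.82 in the jejunum and at 6.31, 6.05 and 6.23 in the ileum. Pdgfrb was at 4.73, 5.0 and 5.01 in the jejunum, against 5.81, 5.6 and 5.59 in the ileum (-0.75 ± 0.132, adjusted p = 0.000669). Dcn was at 3.99, 3.79 and 4.05 in the jejunum, where its level was below the filter, against 5.2, 4.74 and 5.19 in the ileum (-1.1 ± 0.357, adjusted p = 0.0391).

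Fbln1 ran the other way, at 9.88, 9.82 and 9.44 in the jejunum, against 7.38, 7.51 and 7.49 in the ileum. The difference was 2.25 ± 0.197 (4.76-fold higher, adjusted p = 1.23e-06). The wild-type jejunum arrays also serve in the cKO comparison, so the Fbln1 values of these comparisons share them. Mylk was at 7.27, 7.22 and 7.16 in the jejunum and at 7.05, 6.87 and 6.83 in the ileum, with groups that did not overlap (0.3 ± 0.134, adjusted p = 0.134). No other tested member was above 0.

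In all, 8 of the 23 were called lower and 1 higher, while 7.91% of all genes tested were called lower and 13.4% higher. Of these background calls 62.8% were higher, and 49.4% after quantile normalization. Differences were below 0 for 21 of the 23, with a median of -0.64, against 49.5% of all genes tested. They were also below 0 for 13 of the 15 epithelial genes, with a median of -0.21. Of all 35 members 32 were below 0, with a median of -0.45, beside -0.03 for all genes with a symbol. Jejunal arrays lay wholly below ileal arrays for 15 of the 23, against 18% of all genes tested, and wholly above for 2, Fbln1 and Mylk, against 22.2%. Over all 35 they lay wholly below for 22 and wholly above for 2, against 14.9% and 14.8% of all genes with a symbol. In the fit with same-numbered arrays as blocks, a pairing that the labels do not name, 13 members were lower. The added ones were Actg2 (-0.9, adjusted p = 0.0388), Des (-1.14, adjusted p = 0.0118), Vim (-0.65, adjusted p = 0.00968), Bgn (-0.56, adjusted p = 0.0164) and Sparc (-1.15, adjusted p = 0.00295).

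Leaving out 1 array changed some of these calls. Without wild-type jejunum replicate 1 or 2, or wild-type ileum replicate 1 or 3, 5 members were called lower. Acta2 had adjusted p from 0.0541 to 0.0897 in the 5 such fits in which it was lost, and Dcn from 0.0673 to 0.121 in its 5. Dcn also missed the threshold with no level filter (0.0519) and after quantile normalization (0.0575). Tagln was lost without wild-type jejunum replicate 1 or 2 or wild-type ileum replicate 3, with adjusted p from 0.0592 to 0.0991, and Col1a2 without wild-type ileum replicate 1 (0.0532). The calls of Myh11, Pdgfrb, Col1a1, Col3a1 and Fbln1 held under every alternative run.

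Other cell type lists ran in different directions in the same comparison, and their part in it was not tested. Of 8 B and plasma cell genes 8 were below 0 and 3 were called lower, Cd74 (-1.2 ± 0.242, adjusted p = 0.00205), Ms4a1 and Jchain. Of 10 T and NK cell genes 9 were above 0, with a median of 0.4, and 1 was called, Ptprc, the pan-leukocyte phosphatase, lower (-0.9 ± 0.289, adjusted p = 0.0372). Of 9 myeloid genes 2 were lower, Cd14 and Itgam, and of 3 enteric glia, neuron and Cajal cell genes 2 were lower, Kit and Ano1. Of 15 epithelial genes 5 were lower, first by p Krt18 (-0.98 ± 0.0969, adjusted p = 3.83e-06), and 1 was higher, Fabp2, an enterocyte fatty acid-binding protein named after its value was seen (0.74 ± 0.243, adjusted p = 0.0409).

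Basement membrane and collagen VI genes had no call between the regions. Col4a1 and Col4a2 differed by -0.28 ± 0.134 and -0.21 ± 0.129 (adjusted p = 0.172 and 0.284), and Col4a1 was past the threshold without wild-type jejunum replicate 3 (-0.42, adjusted p = 0.0353) and with array weights (-0.34, adjusted p = 0.0244). Col6a1 was at 5.77, 5.56 and 5.6 in the jejunum and at 5.9, 5.96 and 5.98 in the ileum, with groups that did not overlap (-0.31 ± 0.109, adjusted p = 0.0587), and it was past the threshold after quantile normalization (adjusted p = 0.0325) and with array weights (adjusted p = 0.00711). Col6a2 was past it with array weights (adjusted p = 0.0188). Col6a3 differed by -0.1 ± 0.248. Among genes not tested, Pdgfra, the receptor of subepithelial fibroblasts, was at 3.92, 3.72 and 4.05 in the jejunum and at 4.57, 4.47 and 4.59 in the ileum, levels below the filter, with groups that did not overlap (-0.65). Fitted with no level filter, Pdgfra and Lum, the proteoglycan lumican, were past the threshold (adjusted p = 0.0205 and 0.0131).

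Between the control ileum and the wild-type ileum, 6 of the 23 tested were called higher and 2 lower, shares of 26.1% and 8.7%, while 19.3% of all genes tested were called higher and 8.61% lower. Both shares are near those of all genes tested, so the counts are no result about these genes as a group. Gata4 itself was also higher in the control ileum, by 1.22 ± 0.185 (adjusted p = 0.000284). Vim was at 7.19, 8.41 and 7.68 in the control ileum, against 6.17, 5.98 and 6.1 in the wild-type ileum, a difference of 1.68 ± 0.228 (3.2-fold higher, adjusted p = 0.000123). Dcn was at 5.76, 7.31 and 5.58 in the control ileum, against 5.2, 4.74 and 5.19 in the wild-type ileum (1.17 ± 0.357, adjusted p = 0.0242). Pdgfrb was higher by 0.61 ± 0.132 (adjusted p = 0.00359), with control values of 6.16, 6.48 and 6.19 against 5.81, 5.6 and 5.59. Groups did not overlap for any of these 3 genes, and each call but that of Dcn held under every alternative run. Bgn was higher by 0.9 ± 0.25 (adjusted p = 0.0153), Cnn1 by 0.89 ± 0.272 (adjusted p = 0.025) and Thy1 by 0.37 ± 0.119 (adjusted p = 0.0305).

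A pair of collagen genes was lower in the control ileum. Col3a1 was at 5.34, 5.66 and 5.47 in the control ileum, against 6.06, 5.78 and 5.96 in the wild-type ileum, a difference of -0.45 ± 0.131 (adjusted p = 0.0199). Col6a1 was at 5.34, 5.66 and 5.55 in the control ileum, against 5.9, 5.96 and 5.98 in the wild-type ileum (-0.43 ± 0.109, adjusted p = 0.00873). Col1a1 differed by -0.19 ± 0.148 (adjusted p = 0.36) and Col4a1 by -0.01, with a 95% interval from -0.29 to 0.28. Myh11 and Tagln differed by 0.16 ± 0.297 and 0.2 ± 0.277, and Fbln1 by -0.15 ± 0.197 (adjusted p = 0.606).

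Among all genes called in this comparison 69.1% were higher, and 49% after quantile normalization or 58.6% after centring each array on its median. Differences were below 0 for 6 of the 23, against 40% of all genes tested, and for 6 of all 35. Control arrays lay wholly above wild-type arrays for 5 of the 23, against 29.4% of all genes tested, and wholly below for 3, against 15.4%. Over all 35 they lay wholly above for 8 and wholly below for 3, against 19.5% and 15.6% of all genes with a symbol. Without control ileum replicate 1, 11 members were called higher, without control ileum replicate 2 the count was 2, and without wild-type ileum replicate 2 it was 3. Without control ileum replicate 2, Dcn differed by 0.62 (adjusted p = 0.0844), Bgn by 0.6 (adjusted p = 0.0728), Cnn1 by 0.52 (adjusted p = 0.114) and Thy1 by 0.25 (adjusted p = 0.144). The 2 lower calls were 1 without control ileum replicate 1 or 3, or without wild-type ileum replicate 1 or 3, Col3a1 being the call lost. Of 10 T and NK cell genes 4 were called higher, first by p Nkg7, a granule protein of cytotoxic lymphocytes (1.48 ± 0.356, adjusted p = 0.00674), and 10 were above 0. Of 8 B and plasma cell genes 1 was called higher, Jchain (2.07 ± 0.48, adjusted p = 0.00542), with 7 above 0 and a median of 0.24. Of 9 myeloid genes 1 was higher, Cd68 (1.02 ± 0.236, adjusted p = 0.00538), and 1 lower, Cd14 (-0.73 ± 0.173, adjusted p = 0.00598), and of 15 epithelial genes 3 were higher and 1 lower. The part of these genes in the result was not tested.

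**Figure D3:**
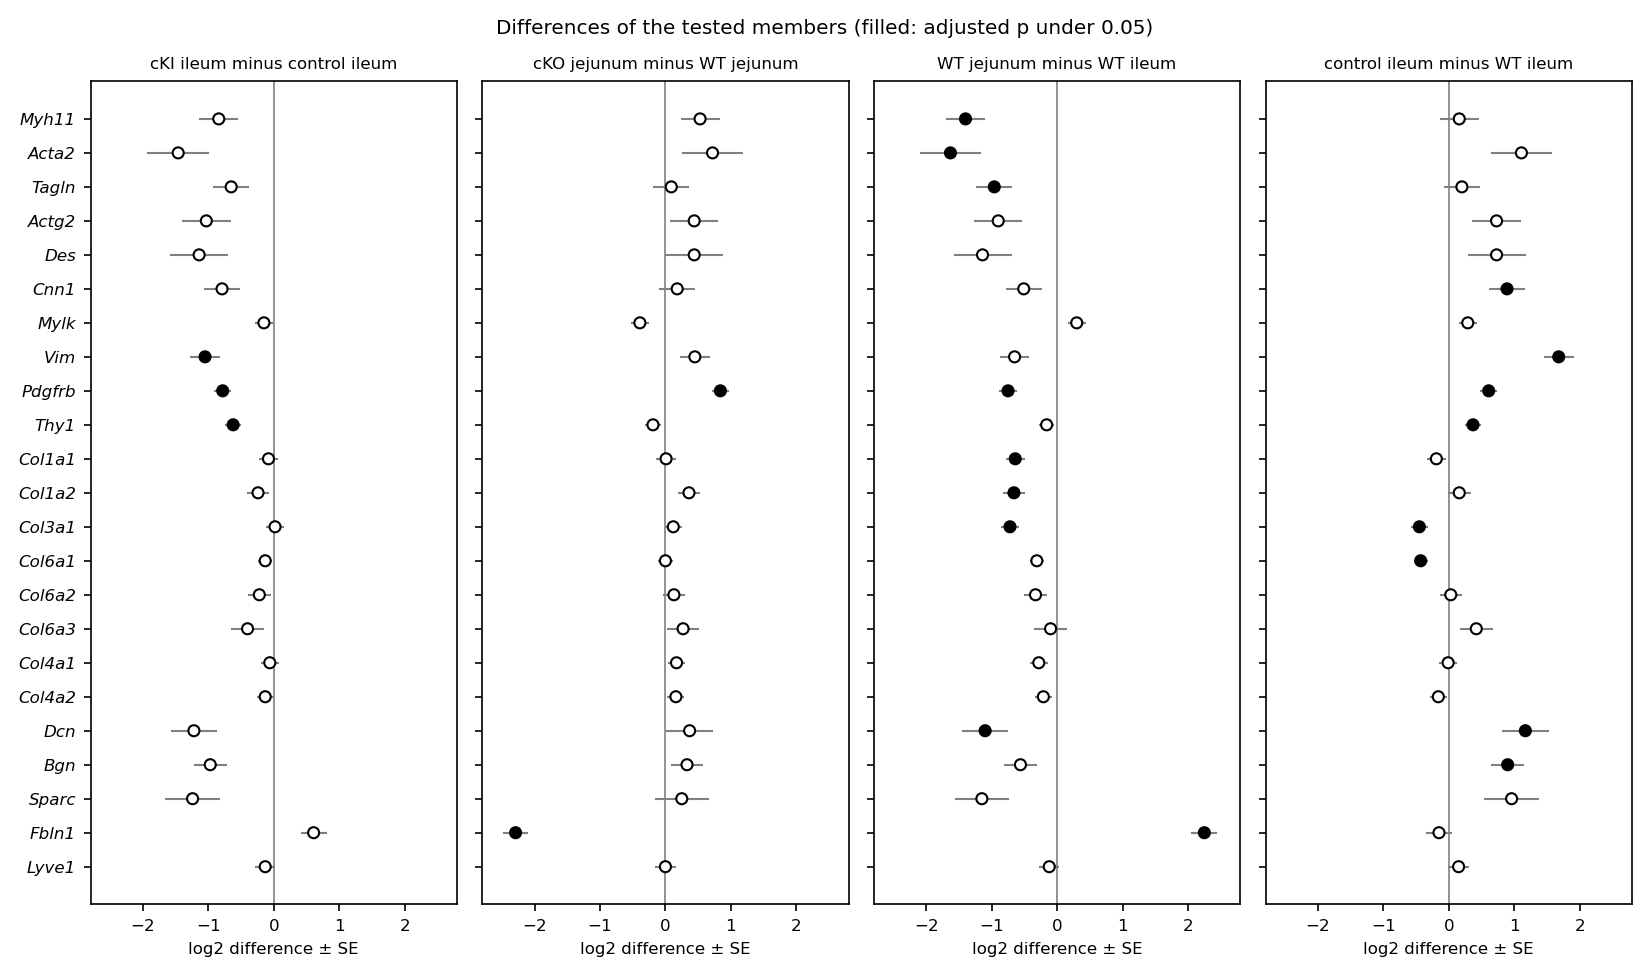
The log2 difference of each of the 23 tested genes, first group minus second, with its standard error from limma as a bar, in 4 comparisons; filled points had an adjusted p under 0.05. Pdgfrb is filled in all 4 panels, and Fbln1 is filled at -2.29 for cKO jejunum minus wild-type jejunum and at 2.25 for wild-type jejunum minus wild-type ileum.

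The 12 genes below the level filter were low in all groups. Rgs5, a regulator of G-protein signalling used as a pericyte marker, was at 3.18, 3.54 and 3.17 in the cKI ileum, against 3.43, 5.03 and 4.12 in the control ileum, so 1 control array lay close to the cKI arrays. Cspg4, the pericyte proteoglycan, ranged from 4.12 to 4.98 over the 15 arrays. Fn1, which encodes fibronectin, ranged from 3.74 to 5.42, Postn, the matricellular protein periostin, from 2.61 to 3.96, and Mgp, the matrix Gla protein, from 3.34 to 4.41.

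The remaining genes below the filter include basement membrane and endothelial genes. Lama2, a laminin chain of muscle basement membrane, ranged from 3.24 to 3.67, Nid1, the linker nidogen, from 3.63 to 4.72, and Fbln2, another fibulin, from 4.22 to 4.86. Pecam1, the endothelial adhesion molecule, ranged from 3.7 to 4.86. Lum was at 2.76, 2.92 and 2.92 in the cKO jejunum, against 2.28, 2.44 and 2.4 in the wild-type jejunum, with groups that did not overlap, and was past the threshold when fitted with no level filter (0.49, adjusted p = 0.0263).

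Across the 4 comparisons, which share control ileum, wild-type jejunum or wild-type ileum arrays with each other, 14 of the 23 tested genes were called at least once and 9 in none. Pdgfrb was the 1 gene called in all 4. Its group means were 5.49 ± 0.11 in the cKI ileum, 6.28 ± 0.18 in the control ileum, 5.75 ± 0.2 in the cKO jejunum, 4.91 ± 0.16 in the wild-type jejunum and 5.67 ± 0.13 in the wild-type ileum (SD, n = 3 arrays each). Fbln1 averaged 7.93 ± 0.42 in the cKI ileum, 7.31 ± 0.28 in the control ileum, 7.42 ± 0.21 in the cKO jejunum, 9.71 ± 0.24 in the wild-type jejunum and 7.46 ± 0.07 in the wild-type ileum. The wild-type jejunum arrays thus lay above all 12 others, whose group means lay within 1 log2 unit of each other. The 9 genes with no call were Actg2, Des, Mylk, Sparc, Col6a2, Col6a3, Col4a1, Col4a2 and Lyve1.

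Lists of other genes of these tissues hold none of the 35. Of 11 further smooth muscle genes tested, limma called 0 between the cKI and control ileum, with 4 lower at an unadjusted p under 0.05, and between the wild-type jejunum and ileum 2 were lower, Flna, the actin crosslinker filamin A (-0.94 ± 0.25, adjusted p = 0.0132), and Actn1, an actin crosslinker (-0.64 ± 0.152, adjusted p = 0.00678). Of 15 further fibroblast and matrix genes tested, 2 were lower in the cKI ileum than in the control ileum, Serping1, the complement C1 inhibitor (-0.99 ± 0.166, adjusted p = 0.0158), and Igfbp7, an IGF-binding protein of stroma and vessels (-1.02 ± 0.214, adjusted p = 0.0454). Both were higher in the control ileum than in the wild-type ileum, by 0.75 ± 0.166 and 0.77 ± 0.214 (adjusted p = 0.00404 and 0.0155). In the cKO jejunum 2 of the 15 were higher than in the wild-type jejunum, Pdpn, podoplanin (0.55 ± 0.122, adjusted p = 0.00709), and Mmp2, a gelatinase (0.44 ± 0.132, adjusted p = 0.041). Actn1 was higher there too (0.69 ± 0.152, adjusted p = 0.00726). In the wild-type jejunum 3 of the 15 were lower than in the ileum, Igfbp4, Thbs1 and Pdpn. In the control ileum 4 of the 15 (26.7%) were higher than in the wild-type ileum, Serping1, Igfbp7, Foxf1 and Bmp4. That share is near the 19.3% of all genes tested, so the count is no result about this list. For the other comparisons, the shares of all genes tested were 0.424% lower in the cKI ileum, 5.17% higher in the cKO jejunum and 7.91% lower in the wild-type jejunum.

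Of 13 further basement membrane genes tested, 3 of the calls fell on Lamb3, a laminin chain of epithelial basement membrane. It was higher in the cKO than in the wild-type jejunum by 0.92 ± 0.288 (adjusted p = 0.0492), lower in the wild-type jejunum than in the ileum (-1.33 ± 0.288, adjusted p = 0.00342), and lower in the control than in the wild-type ileum (-0.95 ± 0.288, adjusted p = 0.0239). The other calls were Tinagl1, higher in the cKO jejunum (0.71 ± 0.204, adjusted p = 0.0326), and the proteoglycan gene Agrn, higher in the wild-type jejunum than in the ileum (0.56 ± 0.126, adjusted p = 0.0045) and in the control than in the wild-type ileum (0.42 ± 0.126, adjusted p = 0.0213). Between the cKI and control ileum limma called 0 of the 13, with 2 lower at an unadjusted p under 0.05, against 6.61% of all genes tested. Called lower were 7.69% of the 13 in the wild-type jejunum against the ileum and in the control against the wild-type ileum. These shares are near the 7.91% and 8.61% of all genes tested.

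Endothelial and nerve markers added little. Of 20 further endothelial and pericyte genes on the array 5 were tested, and the single call was Prox1, a lymphatic and enteroendocrine transcription factor, higher in the control than in the wild-type ileum by 0.39 ± 0.138 (adjusted p = 0.0498). Cdh5, the endothelial cadherin, lay between 3.71 and 4.48 in all 15 arrays, Kdr, the main VEGF receptor, between 3.67 and 4.21, and Sox10, a glial factor, between 4.16 and 4.96. Most of these values were below or near the filter, and Cdh5, Kdr and Sox10 were not tested. A difference in vessels or glia was therefore not assessed from them.

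**Figure D4:**
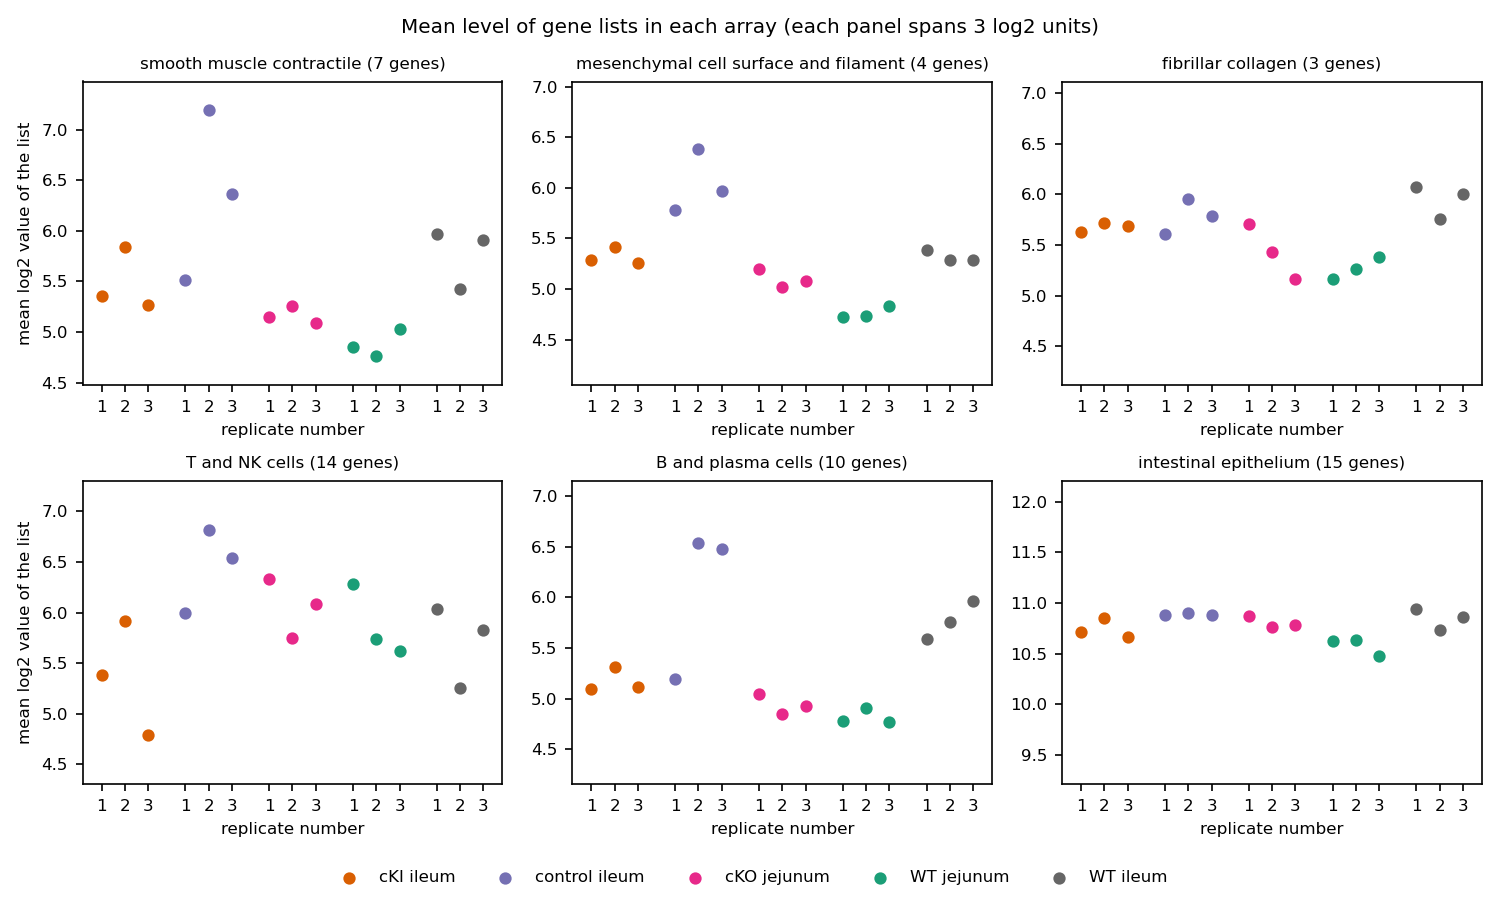
The mean log2 value of 3 subsets of the genes described here (top row) and of lists for T and NK cells, B and plasma cells and intestinal epithelium (bottom row) in each array, with replicate numbers within groups on the horizontal axis; each panel spans 3 log2 units. The contractile mean reaches 7.19 in control ileum replicate 2 and lies between 4.76 and 5.03 in the wild-type jejunum, and the epithelial mean lies between 10.48 and 10.94.

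Averaged over the 7 contractile genes, arrays lay at 5.36, 5.84 and 5.27 in the cKI ileum, against 5.51, 7.19 and 6.36 in the control ileum. The same mean was 5.15, 5.26 and 5.09 in the cKO jejunum, against 4.85, 4.76 and 5.03 in the wild-type jejunum, and the wild-type ileum lay at 5.97, 5.42 and 5.91. These means describe the arrays and carry no test. Control ileum replicate 1 thus lay among the cKI arrays in this mean, while replicates 2 and 3 of the same group lay above every other array of the study.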

How the data were processed

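RNA of isolated epithelial cells was measured on Affymetrix Mouse Gene 1.0 arrays, 15 in 5 groups taken from the sample titles. The deposited values are on a log2 scale, read from their range, and were made in Partek per the submitters' processing notes; version, background correction and normalization are not given in the sources used here. Of 35556 transcript clusters 21789 had 1 symbol, 1621 several and 12146 none in the annotation. The cluster with the highest mean stood for each of the 19938 symbols. Genes with a largest group mean above 4.91 were fitted over all 15 arrays with limma 3.58.1 in R 4.3.3, with 1 mean per group and 10 residual degrees of freedom, two-sided, with a Benjamini-Hochberg threshold of 0.05. The genes, lists and alternatives were chosen with earlier results of these data known.

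After removal of group means, same-numbered arrays correlated across genes by 0.128, 0.177 and 0.258 for cKI and control ileum. For wild-type jejunum and ileum the values were 0.334, 0.216 and 0.161. All were above a limit of 0.1, so replicate blocks within sets were fitted there as an alternative, with the cKO arrays left out. The sets were cKI and control ileum, and wild-type jejunum and ileum. They rest on the replicate numbers, since the labels name no pairing. The main fit had no blocks, so its SE and adjusted p values ignore any pairing. For cKO and wild-type jejunum (0.185, -0.0247, -0.0732) the values were not all above the limit. The same held for control and wild-type ileum (-0.103, -0.265, -0.00722). Every one of the 35 genes is accounted for; of other lists at most 4 genes per comparison are named, by smallest p, besides markers given by range and Fabp2, named after its value was seen. The fit was tested on simulated data with independent noise for each gene and the same spread in every group. That test does not cover shifts of many genes together in a single array.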

Additional observations from a re-analysis of the deposited data

How the results depend on the processing

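Of 22 member calls, 10 held under every alternative run, 12 were lost under at least 1, and 0 reversed; 263 of 315 alternative values stayed past the threshold. For cKI against control ileum, genes called were 40 higher and 50 lower, but 19 and 33 with no level filter, 7 and 12 in the 6 arrays alone, 388 and 378 with array weights, and 124 and 133 with a replicate block within sets. The genes called lower were 92 after quantile normalization, and those called higher 23 with a replicate block over all arrays. Leaving out 1 array gave 6 to 35 higher and 13 to 141 lower. Called background genes were 44.4% higher, and 31.3% after quantile normalization. Members called lower there, 3, were 0 in the 6 arrays alone, 10 with array weights (and 1 higher), 5 with a replicate block within sets and 0 to 8 with 1 array left out. For cKO against wild-type jejunum, 566 genes were lower in the 6 arrays alone, against 901, and 542 to 988 with 1 array left out. Members called higher were 2 with no level filter or in the 6 arrays alone, members called lower 2 with array weights, and each count ran from 1 to 2 with 1 array left out. For wild-type jejunum against ileum, 1651 genes were lower with array weights, against 932; members called lower were 14 in the 6 arrays alone, 17 with array weights (and 2 higher), 13 with a replicate block within sets and 5 to 8 with 1 array left out. For control against wild-type ileum, 1759 genes were lower after quantile normalization and 1616 with array weights, against 1015. Members called higher were 3 with the level filter raised by 1 or in the 6 arrays alone, and 2 to 11 with 1 array left out, and members called lower 1 to 2. The cause of these shifts was not tested, except that fewer genes or arrays enter some fits. The replicate block over all arrays changed 1 member call, Vim, lower in the wild-type jejunum than in the ileum by -0.65 (adjusted p = 0.036). The filter of 4.91 is the median of all values, and no background level was measured. How far levels near or below it reflect signal is therefore not known, which limits the 12 genes not tested.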
